A study of Gallus gallus with 4 samples.

Results

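The genes described here were lower with a FOXL2 plasmid than with the empty plasmid in both of the granulosa cell types studied, prehierarchical and preovulatory. They number 76 of the 10639 genes whose average over the 4 libraries reached 1 FPKM, and of 13819 genes in the tables. FPKM counts sequenced fragments per kilobase of transcript, scaled to the mapped fragments of the library. A gene was a member when log2((FOXL2 + 1)/(control + 1)), computed on FPKM, was at or under -0.4 in prehierarchical and also in preovulatory cells. The members were thus chosen by these 2 measured ratios, whose values are given as a description and carry no test.

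Granulosa cells line the ovarian follicle around the oocyte, support its growth and make steroid hormones. In the hen, small yellow follicles form a prehierarchical pool, from which single follicles are selected into a size-ranked hierarchy of preovulatory follicles that ovulate in order. FOXL2 is a forkhead transcription factor needed for the development and upkeep of granulosa cells in vertebrate ovaries. In mammalian granulosa cells it can repress some promoters, that of STAR (cholesterol import into mitochondria) among them, and activate others.

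Both cell types were cultured as primary cells from hens of 26 weeks, the prehierarchical cells from small yellow follicles (SYF) and the preovulatory cells from F2-F4 follicles. They received either pcDNA3.1-FOXL2 or empty pcDNA3.1 by Lipofectamine 2000 after 18 h in culture, and RNA was taken 48 h after transfection. Each of the 4 groups therefore combines a phase with a plasmid and holds 1 library. Lipid transfection, the pcDNA3.1 backbone, serum of 5% and a temperature of 39 C were common to all groups. The sources used here do not state whether a library came from 1 culture or from pooled hens. No value below has a replicate error, and differences between plasmids cannot be told apart from differences between single cultures. Fewer cells that contain a transcript and less transcript per cell also cannot be told apart in such bulk RNA.

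The tables listed between 12600 and 12724 genes per library. The sources used here do not state total fragment counts. The header of the preovulatory control table ends its sample name in 1 and that of the prehierarchical FOXL2 table in 2, while the other 2 headers carry no such number. What it marks is not stated, and each pair of plasmids holds 1 library so marked. None of the 13819 Ensembl gene identifiers matched the reference gene table used, so the files do not pair the members with symbols or functions. The level of the transfected FOXL2 and of granulosa, theca, endothelial or blood cell markers is not analysed here, and the plasmid and cell labels stand without that check. Members are named by identifier in a few cases and otherwise described by their levels.

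The members were mostly genes of low level. Their mean over the 4 libraries ran from 1.17 to 36.9 FPKM, with a median of 3.30, against a median of 17.4 FPKM over all 10639 genes. The mean was under 5 FPKM in 52 of the 76 members (68.4%), compared with 2054 of all genes (19.3%). Only 2 members reached a mean of 30 FPKM. In prehierarchical cells the median member stood at 4.22 FPKM with the control plasmid and at 2.07 FPKM with FOXL2. In preovulatory cells these medians were 4.72 and 2.57 FPKM.

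Together the members made up a very small part of the transcriptome. Their summed level was 506.6 FPKM in the prehierarchical control library and 293.0 FPKM in the prehierarchical FOXL2 library, or 0.0948% and 0.0526% of all FPKM. In preovulatory cells the sums were 606.5 FPKM with control and 378.2 FPKM with FOXL2, or 0.112% and 0.0716%. The 24 members whose mean reached 5 FPKM supplied 333.2, 213.3, 431.8 and 289.7 FPKM of these sums, in the order prehierarchical control, prehierarchical FOXL2, preovulatory control and preovulatory FOXL2. Those 24 therefore held the larger part of every sum.

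**Figure D1:**
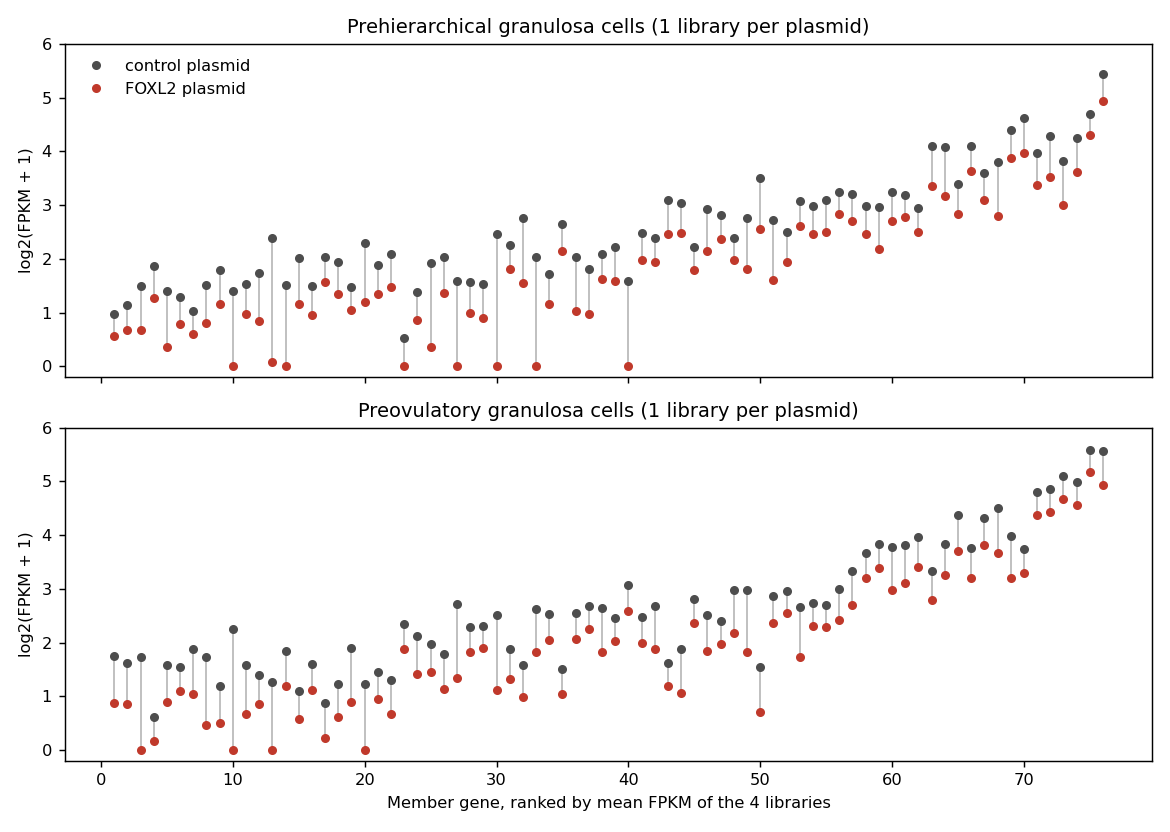
Level of each of the 76 members as log2(FPKM + 1) in prehierarchical (upper) and preovulatory (lower) cells, with members ordered from left to right by their mean FPKM. Each point is 1 library, grey for the control and red for the FOXL2 plasmid, joined by a line per gene; red lies under grey throughout because the rule asked for it, and the points at 0 are the 10 members missing from at least 1 FOXL2 table.

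ENSGALG00000028495 had the largest drop in the weaker of its 2 phases, among members whose mean reached 5 FPKM and that all 4 tables list. It stood at 12.98 FPKM in the prehierarchical control and 5.96 in the prehierarchical FOXL2 library, and at 21.6 FPKM in the preovulatory control and 11.6 in the preovulatory FOXL2 library. Both FOXL2 libraries were thus under both control libraries, with the preovulatory FOXL2 value close to the prehierarchical control value. The log2 ratios were -1.01 in prehierarchical and -0.84 in preovulatory cells, and with a pseudocount of 5 FPKM in place of 1 they were -0.71 and -0.68.

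ENSGALG00000028577 came next by the same order. Its values were 15.9 FPKM with control and 7.99 FPKM with FOXL2 in prehierarchical cells, and 13.3 and 8.56 FPKM in preovulatory cells. The 2 control libraries lay close together, as did the 2 FOXL2 libraries, and they did not overlap. Its log2 ratios were -0.91 and -0.58, which became -0.68 and -0.43 with the larger pseudocount.

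The most abundant member held nearly the same level in both phases. It was at 42.3 FPKM in the prehierarchical and 46.2 FPKM in the preovulatory control library, and at 29.5 FPKM in each of the FOXL2 libraries, with log2 ratios of -0.51 and -0.63. The member next in abundance differed more between phases than between plasmids. It was at 25.1 and 18.7 FPKM with control and FOXL2 in prehierarchical cells and at 46.6 and 35.0 FPKM in preovulatory cells, with log2 ratios of -0.402 and -0.403. It was also the member nearest the threshold.

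The size of the drop was modest in most members. The median log2 ratio was -0.58 in prehierarchical cells (from -2.46 to -0.40) and -0.57 in preovulatory cells (from -2.25 to -0.40). Over all 10639 genes the medians were -0.05 and 0. For the 66 members that all 4 tables list, FOXL2 libraries held a median of 56.8% of the control FPKM in prehierarchical cells (from 9.96% to 74.7%) and 58.8% in preovulatory cells (from 16.2% to 75.1%). Within 0.05 log2 units of the threshold in at least 1 phase lay 26 members. The nearest genes outside missed it narrowly, with weaker ratios of -0.397, -0.395 and -0.393, while the 3 nearest inside had -0.410, -0.408 and -0.402.

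A 2-fold drop was less common. In prehierarchical cells 14 members were at least 2-fold lower with FOXL2, where 0.658% of all genes were, and in preovulatory cells 9 members were, where 0.949% were; the rule used these contrasts, so the shares are printed for scale. The drop was under 2-fold in both phases for 58 members. It reached 2-fold in both phases for 5 members, against 0.047% of all genes, which are the same 5. Each of the 5 was missing from at least 1 FOXL2 table and counted as 0 there, and their means were 1.35 to 2.60 FPKM. The control values of these 5 ran from 1.35 to 5.55 FPKM and their FOXL2 values from 0 to 1.54 FPKM. The larger drop was the prehierarchical one in 45 members and the preovulatory one in 31. No share over all genes was computed for this split, which comes from the ratios that chose the members.

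Some members were absent from a table. No member was missing from a control table, and 10 were missing from at least 1 FOXL2 table, a direction that the rule fixes. The prehierarchical FOXL2 table alone lacked 6 of them, the preovulatory FOXL2 table alone lacked 3, and both lacked 1. Their control values were between 0.44 and 7.42 FPKM. The lowest value in any table is 0.01 FPKM. Why a gene is missing is not stated in the sources used here, and counting it as 0 is an assumption. Missing from at least 1 table were 13.2% of members and 1.16% of all genes. Of the 52 genes higher with FOXL2 in both phases 19.2% were, there from a control table, so the trait is not particular to the members.

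How many fragments stand behind a low value can only be inferred, since no fragment counts were used. A smallest repeated value was taken from 447 genes with a single transcript that at least 1 table lacked. In these the 2 lowest listed values agreed within 5% and the lowest was at least 0.05 FPKM, so smaller steps were left out. The repeated value had a median of 0.23 FPKM (quartiles 0.13 and 0.375). If that value is 1 fragment, 1 FPKM stands for about 4.35 fragments in such genes. The members' own ratios are given here as a description, because the rule used them. Of the 29 members under a mean of 3 FPKM that both prehierarchical tables list, 9 had an FPKM ratio within 0.04 log2 units of exactly 1/2, and in preovulatory cells 6 of 31 did. A ratio of 1/2 is what 1 against 2 or 2 against 4 fragments would give, as would any larger pair in that proportion. The number of fragments behind these genes was not measured. Among members whose mean reached 10 FPKM the same was true of 1 of 14 and 0 of 14. For all genes at or under -0.4 in that phase the share was 13.1% in prehierarchical and 10.7% in preovulatory cells at a mean under 3 FPKM, and 1.36% and 3.79% at 10 FPKM or more. The pseudocount of 1 FPKM makes low genes need a lower FPKM ratio than abundant genes to reach -0.4. The difference between low and high levels is thus partly set by the rule, and a role of fragment steps was not tested.

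In prehierarchical cells alone, 1139 genes (10.7%) had a FOXL2 log2 ratio at or under -0.4, and in preovulatory cells alone 829 genes (7.79%) did. The 76 members were 6.67% of the first list and 9.17% of the second, and 0.714% of all genes. The preovulatory list thus took in 6.67% of the prehierarchical list, beside 7.79% of the whole table. The order of these shares was the other way without the filter and at thresholds of -0.5 and -0.7, and stayed the same under the other alternatives. Without the filter they were 8.85% and 8.58%. At a threshold of -0.5 they were 4.99% and 4.9%, at -0.7 they were 4.12% and 2.4%, and at -0.3 they were 8.3% and 12.7%. With a pseudocount of 0.1 FPKM they were 9.76% and 10.2%, and with median log2 ratios set to 0 they were 7.45% and 7.79%. A filter at a mean of 5 FPKM gave 3.23% and 5.7%, and a pseudocount of 5 FPKM gave 2.24% and 3.35%. Genes listed in all 4 tables gave 6.01% and 7.47%. At 0.4 log2 units or more, 52 genes (0.489%) were higher with FOXL2 in both phases. In opposite directions at the same threshold were 273 genes lower in prehierarchical and higher in preovulatory cells and 264 genes the other way. With median log2 ratios set to 0, 65 genes were lower and 67 higher in both phases. Past 0.7 log2 units, 11 were lower and 13 higher. Under the other alternatives more genes were lower than higher. These counts follow from the ratios that chose the members and were not tested.

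**Figure D2:**
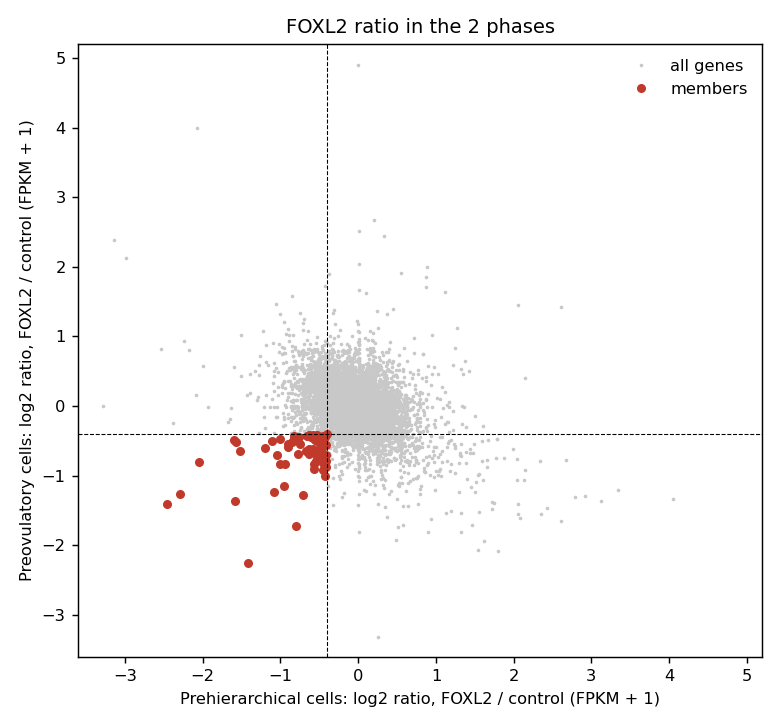
FOXL2 log2 ratio (FPKM + 1) in prehierarchical cells (horizontal axis) and preovulatory cells (vertical axis) for all 10639 genes in grey and the 76 members in red, 1 point per gene. Dashed lines mark the threshold of -0.4; most members crowd into the corner near the lines, and 5 lie past -1 on both axes.

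The share of genes that were members was highest at low levels. Members were 2.72% of the 1289 genes with a mean of 1 to 3 FPKM, 1.18% of 2284 genes at 3 to 10 FPKM and 0.328% of 3661 genes at 10 to 30 FPKM. They were 0.0782% of 2557 genes at 30 to 100 FPKM, and none of the 848 genes at 100 FPKM or more was a member. Genes higher in both phases were 1.71%, 0.701%, 0.328%, 0% and 0.236% of the same 5 classes. Within a class, the share at or under -0.4 in preovulatory cells was smaller among genes already lower in prehierarchical cells than in the whole class, without a test of the difference. These shares were 13.9% against 17.8% at 1 to 3 FPKM, 7.2% against 11.2% at 3 to 10 FPKM, 3.12% against 5.38% at 10 to 30 FPKM, 1.83% against 4.15% at 30 to 100 FPKM and 0 against 4.83% above that. The last 2 classes rest on few genes: 109 and 19 were lower in prehierarchical cells, of which 2 and 0 were members. Shares by class were computed at -0.4 only. Over all genes the order was the other way at -0.5 (4.99% against 4.9%) and at -0.7 (4.12% against 2.4%). These 2 comparisons pool genes of all levels, so they do not give the order within a class.

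**Figure D3:**
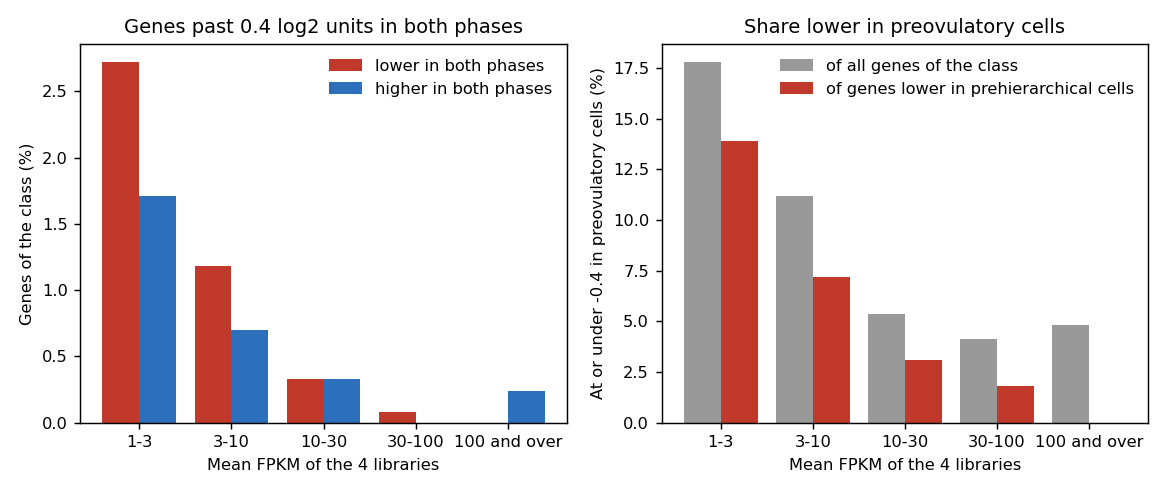
Left, percent of genes in each class of mean FPKM that lay past 0.4 log2 units in both phases, red for lower and blue for higher with FOXL2. Right, percent of genes at or under -0.4 in preovulatory cells. Grey is among all genes of the class and red among genes already at or under -0.4 in prehierarchical cells. At this threshold, the only one computed by class, red is under grey in all 5 classes. Both fall from the lowest class to 30 to 100 FPKM.

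The rule fixed the order of the plasmids within a phase but not across phases. In 44 members (57.9%) both FOXL2 libraries were below both control libraries, so that the plasmids did not overlap even with the phases pooled. Over all genes this order was found in 4.29%; the rule used these contrasts, so nothing is read from the gap. In 21 members the preovulatory FOXL2 library stood at or above the prehierarchical control, with phase log2 ratios of 0.46 to 1.82 between the controls. In the other 11 the prehierarchical FOXL2 library stood at or above the preovulatory control, with phase log2 ratios of -1.97 to -0.71. For these 32 members the gap between phases was thus wider than the drop with FOXL2 in at least 1 phase. The lowest of the 4 libraries was the prehierarchical FOXL2 library in 43 members and the preovulatory FOXL2 library in 32, and 1 member was missing from both. The highest was the preovulatory control in 47 and the prehierarchical control in 29. Because the rule puts each control above its FOXL2 library, these splits only give the order of the phases. The preovulatory control exceeded the prehierarchical control in 61.8% of members and 61.7% of all genes. With FOXL2 the preovulatory library was the higher one in 56.6% of members and 63.9% of all genes.

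The rule set no limit on the ratio between phases, which describes whether the members belong to 1 stage of follicle growth. That ratio is built from the same 4 libraries as the rule, so it is not independent of how the members were chosen. The members did not stand on one side. The median log2 ratio of preovulatory over prehierarchical cells was 0.22 with the control plasmid and 0.12 with FOXL2, against 0.17 and 0.23 over all genes. With the control plasmid, 5 members (6.58%) lay at least 2-fold higher in preovulatory cells, where 7.41% of all genes were, and 9 (11.8%) were at least 2-fold lower, where 8.09% were. With FOXL2, 11 members (14.5%) were at least 2-fold higher, where 9.37% of all genes were, and 7 (9.21%) were at least 2-fold lower, where 7.69% were. With counts this small and 1 library per group, these shares cannot be told apart from the background. Both plasmids gave the same 2-fold direction for 4 members higher in preovulatory cells and 7 lower, or 5.26% and 9.21% of members against 3.82% and 5.35% of all genes. Most of the 4 are missing from the prehierarchical FOXL2 table and were counted as 0 there. ENSGALG00000010986, among the 7, is likewise missing from the preovulatory FOXL2 table. The rule links the phase ratios of the plasmids, so nothing is read from these shares.

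The members furthest apart between phases were mostly those of low level. All 9 members 2-fold lower in preovulatory control cells had a mean under 5 FPKM, and so did 3 of the 5 that were 2-fold higher. Among genes under 5 FPKM, 17.3% of members and 15.6% of all genes were 2-fold lower with the control plasmid, and 5.77% and 11.4% were 2-fold higher. Of the 24 members whose mean reached 5 FPKM, 2 were 2-fold higher in preovulatory cells with control and 2 with FOXL2, 1 of them the same gene, and none was 2-fold lower with either plasmid. In that level range 6.45% and 6.29% of all genes were 2-fold higher and lower with the control plasmid, and 8.70% and 6.21% with FOXL2. The median phase ratio of those 24 members was 0.55 with control and 0.30 with FOXL2, against 0.19 and 0.26 over all genes of that range.

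ENSGALG00000009912 had the highest preovulatory ratio with the control plasmid among members 2-fold apart the same way with both plasmids. Its level was 4.10 FPKM with control and 2.70 FPKM with FOXL2 in preovulatory cells, against 0.44 FPKM in the prehierarchical control, a phase log2 ratio of 1.82 with the control plasmid. The prehierarchical FOXL2 table does not list it, so no phase ratio is printed for that plasmid. ENSGALG00000027061 followed with 7.42 and 5.00 FPKM in preovulatory cells with control and FOXL2, and 2.03 FPKM in the prehierarchical control, a phase log2 ratio of 1.47. The prehierarchical FOXL2 table lacks it as well. With a pseudocount of 5 FPKM the control phase ratios of the pair were 0.74 and 0.82, under 2-fold. Their preovulatory FOXL2 log2 ratios were -0.46 and -0.49, and with that pseudocount -0.24 and -0.31, so neither then met the rule. The prehierarchical drop of ENSGALG00000009912 ran from 0.44 FPKM to a missing value counted as 0. In both genes either preovulatory library exceeded either prehierarchical one. That order follows in large part from how the pair was chosen, so nothing is read from it. ENSGALG00000009912 also reached the filter of 1 FPKM only through its preovulatory values.

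At the other end, ENSGALG00000017166 had 10.4 FPKM with control and 4.92 FPKM with FOXL2 in prehierarchical cells, and 1.90 and 0.63 FPKM in preovulatory cells. Its phase log2 ratios were -1.97 with control and -1.86 with FOXL2, and its FOXL2 log2 ratios were -0.94 and -0.83. ENSGALG00000010357 had 7.55 and 4.53 FPKM in prehierarchical cells and 2.06 and 1.29 FPKM in preovulatory cells, with phase log2 ratios of -1.48 and -1.27. With a pseudocount of 5 FPKM the ratios with control and FOXL2 were -1.16 and -0.82 for ENSGALG00000017166 and -0.83 and -0.60 for ENSGALG00000010357, so that 1 of these 4 stayed past 2-fold. In both genes either prehierarchical library exceeded either preovulatory one, and the FOXL2 library was the lower one within each phase. The first order follows in large part from how the pair was chosen and the second from the rule, so nothing is read from them.

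**Figure D4:**
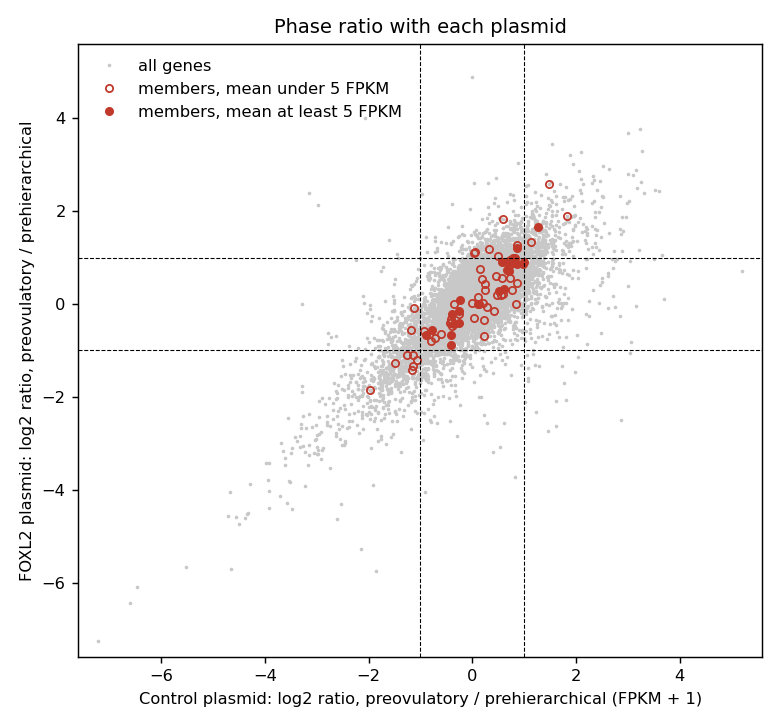
Log2 ratio of preovulatory over prehierarchical cells (FPKM + 1) with the control plasmid (horizontal axis) and the FOXL2 plasmid (vertical axis), grey for all 10639 genes, open red for the 52 members under a mean of 5 FPKM and filled red for the 24 others. Dashed lines mark 2-fold; members lie on both sides of 0, and no filled point is past the lower lines.

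Other properties of the gene models were compared with the whole table. A single transcript was listed for 75 of 76 members (98.7%) and for 94.8% of all genes. Ensembl numbers its gene models serially, and 24 members (31.6%) carried a number of 25000 or above, compared with 12.9% of all genes. This boundary was chosen after the values were seen. The share was also above that of all genes within each level range, at 30.8% against 16.9% under 5 FPKM and 33.3% against 11.9% from 5 FPKM. Of the 52 genes higher with FOXL2 in both phases, 34.6% carried such numbers.

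With a pseudocount of 5 FPKM, which gives low values little weight, 9 members still met the rule. Their means were 1.35 to 36.9 FPKM, 5 under 5 FPKM and 4 over 10 FPKM, and 4 of the 9 were missing from at least 1 table. The 9 include ENSGALG00000028495 and ENSGALG00000028577, described above, and the most abundant member. In all 9 both FOXL2 libraries were below both control libraries, where 4.29% of all genes had this order. An identifier number of 25000 or above was carried by 8 of the 9, compared with 12.9% of all genes. The 9 were picked by the same ratios, and the identifier boundary was chosen after the values were seen. Nothing is therefore read from either count.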

How the data were processed

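The authors deposited 1 table of FPKM values per library, per the file headers, with 1 value for each Ensembl gene. The submitters' processing notes name Bowtie, RSEM and the build galGal4; versions, parameters and strand use are not stated in the sources used. RSEM divides fragments among similar transcripts, so near-identical copies are uncertain. Tables were joined on the gene identifier, and a missing gene was taken as 0. A gene was kept if its mean reached 1 FPKM. Libraries were compared by the log2 ratio of (FPKM + 1) without further scaling, which understates changes of low genes. With 1 library per group no test was made. On simulated data the rule for FOXL2 in both phases found 100 of 100 genes lowered 2-fold among 8596, with no noise added. Every simulated gene had a mean of at least 5 FPKM and equal values in all libraries before lowering. A 2-fold drop then passes by construction, so this only checks that the rule was applied as written. It does not cover genes under 5 FPKM or smaller drops. Python 3.11.15, pandas 2.3.3, numpy 2.4.6 and matplotlib 3.10.9 were used.

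The members and lists were chosen with earlier results of these data known. For want of symbols, identifiers are printed for the first 2 members by weaker ratio (mean of at least 5 FPKM, all 4 tables) and for the 2 highest and 2 lowest phase ratios with the control plasmid among members 2-fold apart the same way with both plasmids; other members are given by value. The gene lists that need symbols were not analysed here. Alternatives were pseudocounts, filters, thresholds, median scaling and genes listed in all 4 tables.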

Additional observations from a re-analysis of the deposited data

How the results depend on the processing

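Members were chosen anew under each alternative. With a pseudocount of 0.1 FPKM there were 142 members, all 76 among them, with a prehierarchical median log2 ratio of -0.70; 12 were 2-fold lower in both phases, and 23 and 35 were 2-fold higher and lower in preovulatory cells with control, 31 and 37 with FOXL2. With a pseudocount of 5 FPKM there were 9 members, 0 of them 2-fold lower in both phases, 9 with both FOXL2 libraries below both controls, and 0 in each of the 4 phase counts. With median log2 ratios set to 0, 65 members were left, of which 3 with control and 6 with FOXL2 were 2-fold higher in preovulatory cells. Genes listed in all 4 tables gave 66 members, 0 of them 2-fold lower in both phases, and 2 and 5 in place of those counts. Without the filter there were 128 members, 90 with separated plasmids. With a filter of 5 FPKM there were 24, of which 0 were 2-fold lower in both phases and 12 had separated plasmids, with phase counts of 2 and 0 for control and 2 and 0 for FOXL2. A threshold of -0.3 gave 157 members, a preovulatory median of -0.44, 76 with separated plasmids and phase counts of 12, 21, 20 and 18. A threshold of -0.5 gave 34 members, medians of -0.83 and -0.69, 25 with separated plasmids and phase counts of 1, 5, 5 and 3. A threshold of -0.7 gave 11 members, medians of -1.08 and -1.26, 10 with separated plasmids and phase counts of 1, 3, 3 and 2. The cause of these moves was not tested, beyond fewer or more genes passing by construction. In the genes described singly, no FOXL2 ratio and no 2-fold phase ratio changed sign with another pseudocount or with median scaling. Genes listed in all 4 tables gave no such change either, where it could be computed. At a pseudocount of 5 FPKM, 3 of the 4 genes named for phase fell under 2-fold with control. All 4 then had preovulatory FOXL2 ratios short of -0.4, from -0.31 to -0.17. So did the second most abundant member, at -0.37, which with median scaling stood at -0.35 in prehierarchical cells. Smaller phase ratios changed sign with median scaling. With FOXL2, ENSGALG00000028577 went from 0.09 to -0.14 and the most abundant member from 0.0005 to -0.23. With control, the latter went from 0.13 to -0.05. No paired analysis was possible because the results come from no test: the plasmid ratios are already taken within a phase and chose the members, and a model of phase with plasmid as a term, which would leave 1 residual degree of freedom, was not run. With 1 library per group, none was left out. The fragments behind values near 1 FPKM are not known.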
